A study of Mus musculus with 78 samples.

Results

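Messenger RNA levels were compared between mouse embryonic stem cells (mESCs) treated for 96 h to degrade TRIM28 protein and the same cells in vehicle. The comparison rests on 6 of the 78 samples of the series, 3 treated with dTAG-13 and 3 with DMSO, and on every annotated gene. Of 54446 gene IDs in the tables, 17922 reached 1 TPM, a level scaled by gene length and library depth, or more in 3 or more of the 15 libraries of the RNA-seq time course and were tested. All cells came from a single-cell clone of the V6.5 mESC line in which the endogenous TRIM28 carries the FKBP F36V degron at its N-terminus, together with mRuby2 and a P2A peptide, so control cells also carried the tag. The ligand dTAG-13 brings the tagged protein to an E3 ubiquitin ligase, which leads to its degradation. Treated cells received 500 nM dTAG-13 for 96 h. Control cells, labelled 0 h, received 0.05% DMSO, added 24 h before collection. The vehicle was therefore not given for 96 h, and time in culture with treatment cannot be told apart from loss of TRIM28. Cells were expanded on irradiated embryonic fibroblasts in serum and LIF and were depleted of these feeders before the experiment.

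TRIM28, also called KAP1, is a corepressor that has no DNA sequence preference of its own. It reaches its sites, among them endogenous retroviruses (ERVs) and imprinted loci, through DNA-binding KRAB zinc finger proteins. Silencing there depends on H3K9 methylation by SETDB1 and on HP1 proteins that read this mark. In mESCs a small circuit of transcription factors, with OCT4 (encoded by Pou5f1), SOX2 and NANOG at its centre, keeps the cells undifferentiated, and many genes of this circuit lie beside clusters of strong enhancers called super-enhancers (SEs). When the circuit fails, mESCs can give rise to cells of the germ layers and to extraembryonic cells, and the genes that mark those cells come on.

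TPM sum to the same total in every library, and the tables hold no read counts. Relative depth, worked out from read coverage, ran from 0.915 to 1.19 in DMSO and from 0.923 to 1.06 at 96 h. Within a group the Pearson's r across genes, which are not independent replicates, lay between 0.993 and 0.994, and between the groups it lay between 0.875 and 0.884. Mitochondrial transcripts took 6.00% to 7.90% of all TPM in DMSO and 3.65% to 3.76% at 96 h. The study calls its RNA-seq replicates biological. The sources used here do not say that they came from separate cultures, so p-values measure the spread between these samples. In bulk RNA, fewer cells of a type and less RNA per cell cannot be told apart.

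The 96 h tables stood apart from the other 12 in several classes of feature. Genes annotated as rRNA took 1.45% to 1.77% of all TPM at 96 h and at most 0.0522% in the other libraries. Genes of snoRNAs took 0.0321% to 0.0359% at 96 h and 0.108% to 0.165% elsewhere, and 113 of 170 tested were lower and 5 were higher. A further class is that of genes lying inside a gene of the opposite strand. Of 59 tested features with at least 95% of their exonic bases inside exons of such a gene, 45 were lower and 3 were higher at 96 h. The background over all tested genes was 12.4% lower and 20.3% higher. Of these 59 features, 28 were listed at 0 TPM in all 3 libraries at 96 h, and 0 were listed at 0 in all 3 DMSO libraries.

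**Figure D1:**
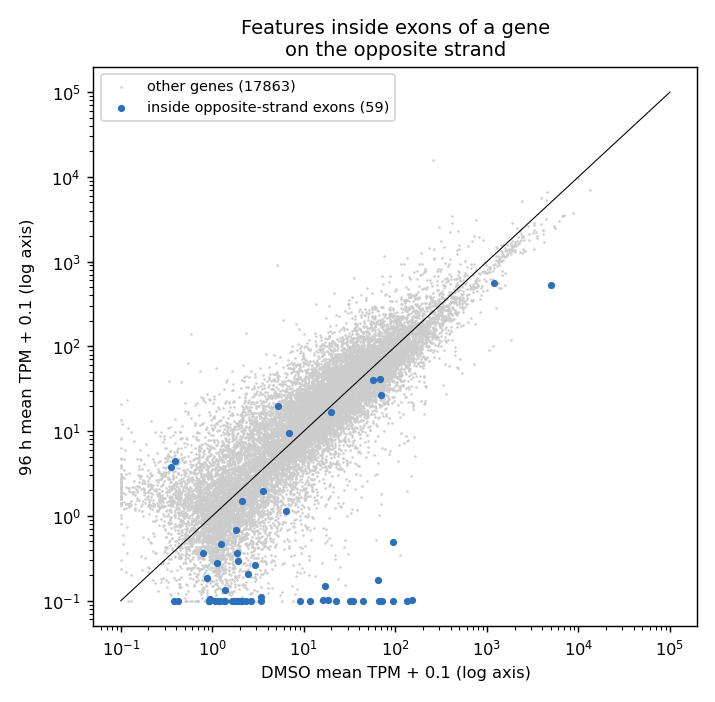
Mean TPM in DMSO (horizontal axis) and at 96 h (vertical axis) of every tested gene, both as TPM + 0.1 on log axes. The 59 features inside exons of an opposite-strand gene are marked against the 17863 others, and 28 of them lie on the lower edge, at 0 TPM in every 96 h library.

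The pseudogene Gm12481 (chromosome 4, 43664043 to 43664339, plus strand, mm10) had 134, 135 and 131 TPM in DMSO and 0 TPM in each library at 96 h. The gene around it on the minus strand, Fam221b, had 2.33, 2.19 and 2.42 TPM in DMSO and 22.3, 21.6 and 20.6 TPM at 96 h. This pair moved in opposite directions, and so did the next ones. Gm5812 went from 64.2 to 0.0774 TPM while Tulp4 went from 31.0 to 92.7 TPM. On chromosome 17, the noncoding gene Gm42418 went from 5030 to 530 TPM, and CT010467.1, annotated as rRNA on the other strand, went from 255 to 15804 TPM. In all, 10 features were at 0 TPM in the 3 libraries of 96 h and at 5 TPM or more in all 12 others. Of these, 8 lay inside opposite-strand exons, and 7 were processed pseudogenes. The other two were the pseudogene H2-M6-ps and Tcl1, which share no exonic base with an opposite-strand gene. The part of strand handling in these values was not tested. Any difference in how the 96 h libraries were prepared or processed would go with the treatment. The calls below cannot tell such a difference apart from the treatment. Genes in the text that share more than 10% of their exonic bases with another gene are named as such.

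At 96 h, 3634 of 17922 genes (20.3%) were higher and 2228 (12.4%) were lower than in DMSO. A call needed an adjusted p below 0.05 (limma on log2(TPM + 0.5), Benjamini-Hochberg) and a change above 2-fold on that log2 scale. Because of the added 0.5, low genes can differ more than 2-fold in mean TPM and not be called. A gene below 0.5 TPM in every DMSO library could pass the filter through treated libraries and could not be called lower. The higher genes took 6.87% to 6.99% of all TPM in DMSO and 25.1% to 25.3% at 96 h. The lower genes took 15.2% to 16.0% and then 5.46% to 5.55%. A change of more than 4-fold was found for 1086 higher and 538 lower genes, and of more than 16-fold for 54 and 63. All 3 libraries at 96 h lay above or below all 3 of DMSO for 5836 of the called genes, of which 3630 were higher and 2206 lower. The same was true of 44.4% (higher) and 38.8% (lower) of all genes tested, 83.1% in all. Centring each library on the median of its tested genes moved every log2 change down by 0.277 and gave 2713 higher and 3364 lower genes, so that 44.6% of calls were higher in place of 62.0%. Among protein-coding genes that share at most 10% of their exonic bases with another gene, 23.2% were higher and 11.1% lower. By chromosome, the share of higher genes ran from 17.7% to 25.2% and that of lower genes from 10.3% to 15.3%.

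**Figure D2:**
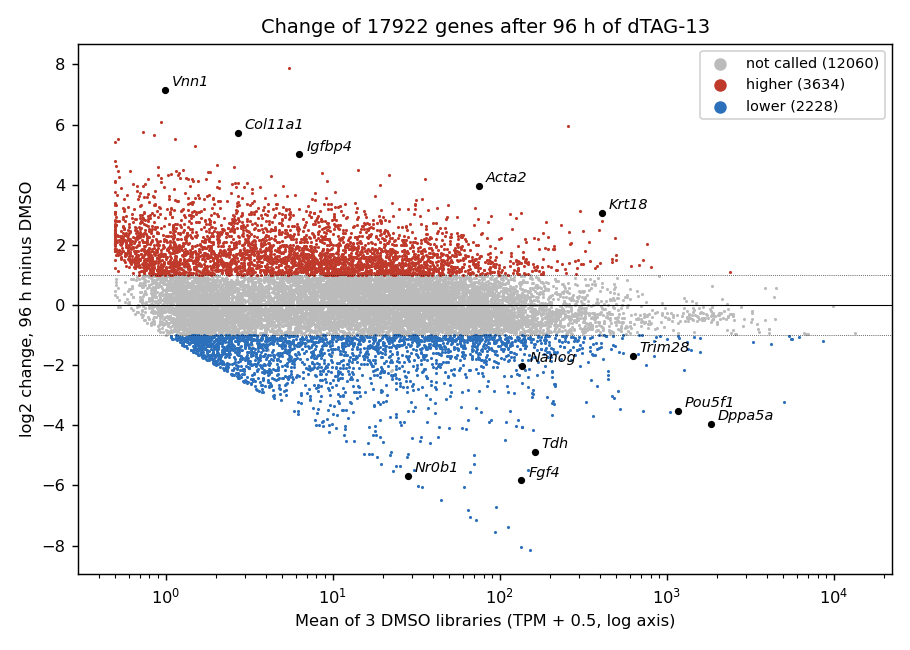
Log2 change from DMSO to 96 h of dTAG-13 (vertical axis, on log2(TPM + 0.5)) against the mean level in DMSO (TPM + 0.5, log axis) of 17922 genes. The 3634 higher and 2228 lower genes are coloured and 12060 were not called. Labelled genes include Fgf4 (-5.83), Dppa5a (-3.96) and Pou5f1 (-3.51) among the lower and Vnn1 (7.15) among the higher. Features that share exonic bases with other genes lay further out, such as Gm6061 (-8.15) and Gm49394 (7.88).

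Trim28 itself (chromosome 7, 12999114 to 13031035, mm10) had 622, 622 and 626 TPM in DMSO and 186, 185 and 204 TPM at 96 h. The groups did not overlap, and the log2 change was -1.70 (SE 0.0531, limma adjusted p = 7.36e-13). Group means at the earlier times lay in between, at 599 TPM (2 h), 495 TPM (6 h) and 372 TPM (24 h). The degron acts on the protein, so the mRNA does not check the degradation.

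The genes that define mESCs fell, with most members of every pluripotency list down by more than 2-fold. Of 16 core pluripotency and mESC factors, 13 were lower and 0 higher, with a median log2 change of -3.15 beside 0.049 over all genes tested. Pou5f1 (chromosome 17, 35506018 to 35510772) had 1163, 1181 and 1141 TPM in DMSO and 93.7, 97.1 and 116 TPM at 96 h. This was a log2 change of -3.51 (SE 0.0768, limma adjusted p = 2.28e-14), and 14.1% of its exonic bases lie in an opposite-strand gene. Sox2 had 212, 206 and 195 TPM in DMSO against 21.9, 19.7 and 21.2 TPM at 96 h (log2 change -3.26). Nanog fell less, from 135, 142 and 132 TPM to 30.1, 33.4 and 35.4 TPM, a log2 change of -2.03 (SE 0.0635, limma adjusted p = 7.37e-13). At 24 h its mean had been 199 TPM. Tdh, the threonine dehydrogenase on which mESCs depend for one-carbon units, went from 162 ± 5.53 TPM to 5.03 ± 0.937 TPM (SD, n = 3). Tdgf1, the Nodal co-receptor CRIPTO, went from 1048 ± 34.4 TPM to 89.5 ± 11.5 TPM. Utf1 and Mycn had log2 changes of -3.45 and -3.20. The 3 members not called were Lin28a, Trim71 and Zfp281, and Lin28a went from 460 to 243 TPM (log2 change -0.92).

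Promoter windows of these genes were searched for the octamer core that POU factors such as OCT4 bind. Sequences come from RefSeq on GRCm38.p6 and run from 250 bases before to 50 bases after the gene start. The search used ATGCAAA on both strands. The stretches below are shown because Nanog, Sox2 and Zfp42 are listed pluripotency genes that fell and whose windows hold the core, which is in capitals and reads in either direction. They lie at chr6:122707377-122707456 (plus strand), chr3:34649859-34649938 (plus) and chr8:43307152-43307231 (minus). The core starts 75, 99 and 185 bases before the gene start.
Nanog: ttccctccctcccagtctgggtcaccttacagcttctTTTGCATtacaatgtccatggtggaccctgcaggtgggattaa
Sox2: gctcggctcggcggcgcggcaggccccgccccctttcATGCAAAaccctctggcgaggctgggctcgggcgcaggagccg
Zfp42: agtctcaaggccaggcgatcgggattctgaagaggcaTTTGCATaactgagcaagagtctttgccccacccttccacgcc
A window was found for 10669 of 13840 protein-coding gene symbols tested (77.1%), so the shares are a description of those alone. The core was present in 4.15% of all these windows, in 5.48% of those of lower genes, in 4.05% of those of higher genes and in 3.97% of those of genes not called. By list, it was in 2 of 12 windows of core pluripotency genes, 1 of 14 of naive pluripotency genes and 2 of 13 of the feeder fibroblast genes, which rose.

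Of 22 naive pluripotency genes, 16 were lower and 1 was higher, with a median log2 change of -2.15. Fgf4, the FGF that mESCs secrete and whose enhancer is a classic target of OCT4 and SOX2, had 138, 131 and 133 TPM in DMSO and 1.91, 1.77 and 1.89 TPM at 96 h. Its log2 change of -5.83 (SE 0.0534, limma adjusted p = 1.7e-17) was the largest fall of the list. Nr0b1, which encodes the nuclear receptor DAX1, went from 27.8 ± 0.761 TPM to 0.0530 ± 0.0477 TPM. The small RNA-binding protein gene Dppa5a, among the most abundant transcripts of DMSO cells, had 1894, 1950 and 1685 TPM and then 111, 118 and 125 TPM. Esrrb, an orphan nuclear receptor, went from 108 to 6.84 TPM (log2 -3.89), and Zfp42, known as REX1, from 130 to 25.4 TPM (log2 -2.33). Klf4 went from 44.1 to 11.0 TPM and Klf2 from 121 to 33.7 TPM. Tcl1 was listed at 0 TPM in each library at 96 h, after 14.1, 16.6 and 14.0 TPM in DMSO. Klf5, Tbx3, Stat3, Lifr and Dppa2 were not called. The 1 higher member, Il6st, encodes gp130, the signalling subunit of the LIF receptor, and went from 22.5 to 69.3 TPM.

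Genes of the formative and primed epiblast, the states that follow naive pluripotency in the embryo, were lower as well. Of 18 tested, 13 were lower and 2 were higher, with a median of -1.91. The de novo methyltransferase Dnmt3b went from 445 ± 6.81 TPM to 87.3 ± 3.29 TPM and the basic helix-loop-helix factor Tcf15 from 69.3 to 1.28 TPM. Otx2, a homeobox gene of the epiblast, went from 13.8 to 2.88 TPM, and Foxd3 from 27.7 to 0.416 TPM. The higher members were the N-cadherin gene Cdh2, from 7.68 to 63.2 TPM, and Sox4, from 34.4 to 106 TPM, of which 54.6% of the exonic bases lie in an opposite-strand gene.

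**Figure D3:**
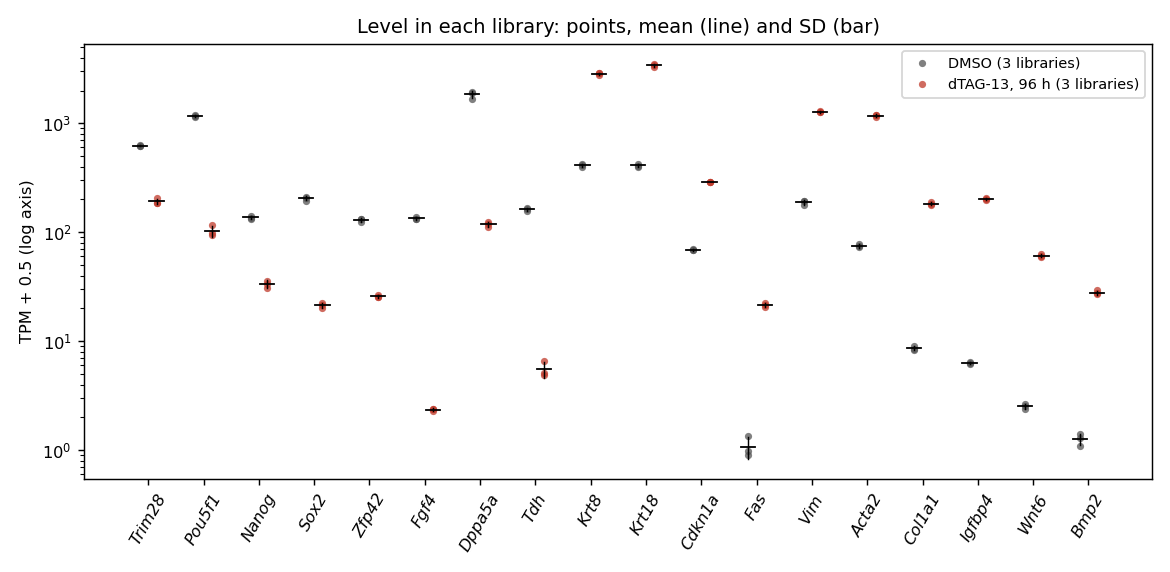
TPM + 0.5 (log axis) of 18 genes in each library of DMSO and of 96 h of dTAG-13. Points are libraries, lines are group means and bars are the SD of 3 libraries, and for all genes shown the groups do not overlap, Pou5f1 lying between 1141 and 1181 TPM in DMSO and between 93.7 and 116 TPM at 96 h.

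The largest changes by fold were led by pseudogenes and overlapping features among the falls, where 3 of the 15 largest were protein-coding (Aire, Fgf4 and Nr0b1) and 10 shared over 10% of their exonic bases with another gene. Among the 15 largest rises, 8 were protein-coding. Over 10% of exonic bases were shared with another gene by 8 of these 15 as well, among them the largest rise, Gm49394. The changes below are from protein-coding genes with little overlap, a restriction chosen after the values were seen. Vnn1, a pantetheinase (chromosome 10, 23894688 to 23905343), had 0.400, 0.508 and 0.550 TPM in DMSO and 147, 143 and 128 TPM at 96 h. Its log2 change was 7.15 (SE 0.132, limma adjusted p = 5.19e-15). Col11a1, a fibrillar collagen gene, had 2.30, 2.15 and 2.15 TPM and then 150, 137 and 143 TPM. Igfbp4, which encodes a binding protein of insulin-like growth factors, had 5.82, 5.75 and 5.89 TPM and then 202, 208 and 199 TPM. All of these genes were low in every DMSO library and high in every library at 96 h. The other rises included the axon guidance receptor Robo2 (to 39.3 TPM), the serine protease Tmprss2 (1.53 to 50.6 TPM), the myelin protein gene Pmp22 (13.6 to 314 TPM), the sphingosine-1-phosphate receptor S1pr1 (0.658 to 25.1 TPM), the neuropeptide gene Nts (0.115 to 13.1 TPM) and Igfbp5 (0.696 to 24.4 TPM). Among the falls, Aire, known for its role in the thymus, had 55.2, 55.4 and 71.7 TPM in DMSO and 0.319, 0.418 and 0.538 TPM at 96 h. At 24 h its mean was still 51.8 TPM. Tdrd12, a factor of the piRNA pathway, went from 69.4 to 1.72 TPM, Pipox, a peroxisomal oxidase, from 37.6 to 1.08 TPM, and the zinc finger gene Zfp819 from 19.5 to 0.353 TPM. Spink1, Gpx2, Vwa3b, H2-M5 and Mcf2 also ended below 0.300 TPM on average, with log2 changes between -5.37 (Vwa3b) and -4.58 (Mcf2).

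In absolute level, 9 of the 10 largest gains were of protein-coding genes. The simple-epithelium keratin gene Krt18 (chromosome 15, 102028180 to 102032027) had 401, 422 and 407 TPM in DMSO and 3457, 3493 and 3294 TPM at 96 h. Its partner Krt8 had 395, 422 and 415 TPM and then 2883, 2887 and 2757 TPM. At 24 h their means were 370 and 269 TPM, below those in DMSO. The gamma-actin gene Actg1 went from 2388 to 5122 TPM, tropomyosin Tpm1 from 766 to 3127 TPM, thymosin beta-4 (Tmsb4x) from 488 to 2312 TPM and galectin-1 (Lgals1) from 313 to 1737 TPM. Actg1 was under the 2-fold limit when libraries were centred. Igfbp2 went from 392 to 2236 TPM, and the mitochondrially encoded mt-Nd6 from 722 to 2027 TPM. Among the 10 largest losses were 4 other mitochondrially encoded genes, mt-Nd1 going from 8649 ± 1764 TPM to 3737 ± 10.1 TPM. The other 3, mt-Co2, mt-Cytb and mt-Atp8 (21.1% of its exonic bases in a same-strand gene), were not called without DMSO replicate 3. Of all 37 mitochondrially encoded genes 10 were higher (27%) and 5 were lower (13.5%), with a median of -0.04. Over all genes tested the shares were 20.3% and 12.4%. Large losses were also those of the nucleolar protein Npm1 (4220 to 1696 TPM), the chaperone Hsp90aa1 (3288 to 1404 TPM), Dppa5a and Pou5f1.

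Trophoblast is the outer lineage of the blastocyst and forms much of the placenta. Of 19 genes of its list that were tested, 11 were higher (57.9%) and 0 were lower, with a median of 1.84. Over all genes tested 20.3% were higher and 12.4% lower. Beside Krt8 and Krt18, Krt7 went from 13.4 to 131 TPM and Krt19 from 34.2 to 124 TPM. Hand1, a factor of trophoblast giant cells and of heart mesoderm, had 7.00, 6.89 and 7.83 TPM in DMSO and 60.1, 64.5 and 66.5 TPM at 96 h. Esx1, an X-linked homeobox gene of the placenta, went from 13.2 ± 1.33 TPM to 114 ± 3.97 TPM. Gata2 (4.77 to 29.4 TPM), Gata3 (3.59 to 16.6 TPM) and Tfap2a (1.96 to 13.3 TPM) were higher too, and 14.6% of the exonic bases of Tfap2a lie in an opposite-strand gene. The trophoblast stem cell factor genes Cdx2, Eomes and Elf5 were not among them. Cdx2 had 1.19 ± 0.134 TPM in DMSO and 2.61 ± 0.391 TPM at 96 h, Eomes had 3.42 and 1.70 TPM, and neither was called, while Elf5 did not reach the level needed for the test. Several of the members that rose, the keratins above all, are also made by other epithelia.

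Genes of extraembryonic and definitive endoderm were more often higher than lower. Of 15 endoderm transcription factor and signalling genes tested, 7 were higher (46.7%) and 1 was lower (6.67%), with a median of 0.98. Of 18 structural and secreted genes, 10 were higher (55.6%) and 4 were lower (22.2%), with a median of 1.19. Over all genes tested the shares were 20.3% and 12.4%. Sox17 had 1.26, 0.956 and 0.339 TPM in DMSO and 24.4, 23.6 and 20.9 TPM at 96 h, and 16.9% of its exonic bases lie in an opposite-strand gene. Gata6 went from 1.41 ± 0.274 TPM to 7.25 ± 0.309 TPM and Foxa2 from 0.654 to 2.48 TPM. Gata4 (3.69 and 7.75 TPM) was not called, and Hnf4a was not tested. Among basement membrane genes, Sparc had 260, 262 and 261 TPM and then 1382, 1425 and 1409 TPM, and Col4a1 went from 50.8 to 265 TPM. The plasminogen activator gene Plat went from 3.40 to 36.5 TPM. Lama1, which encodes a chain of the laminin made by parietal endoderm, fell from 12.7 to 4.64 TPM. Afp, Apoa1 and Apob, secreted by visceral endoderm, did not reach the level needed for the test.

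Of 15 primitive streak and mesoderm genes tested, 7 were higher (46.7%) and 1 was lower (6.67%), and the median was -0.03. Over all genes tested the shares were 20.3% and 12.4%. T, the gene of Brachyury, had 4.82 ± 1.01 TPM in DMSO and 4.71 ± 1.54 TPM at 96 h (limma adjusted p = 0.824), and Mixl1 had 0.961 and 0.950 TPM. Foxf1, a gene of lateral plate mesoderm, went from 0.355 to 6.28 TPM, and Wnt3, the Wnt ligand needed to form the streak, from 3.82 ± 0.150 TPM to 29.0 ± 1.26 TPM. Of 10 neural genes tested, 3 were higher (30%) and 1 was lower (10%), beside 20.3% and 12.4% of all genes tested. Pax3, a factor of dorsal neural tube and neural crest, had 0.177, 0.237 and 0.277 TPM in DMSO and 10.9, 11.4 and 10.4 TPM at 96 h, while the neural plate gene Sox1 fell from 5.28 to 1.08 TPM. Of 39 Hox genes, members of the clusters that pattern the body axis, 19 were tested. Of these, 14 were higher (73.7%) and 0 were lower, with a median of 1.47. Members low in DMSO, such as Hoxd8 and Hoxd9, could pass the filter through their later level and could hardly be called lower. Hoxb9 went from 1.27 to 21.3 TPM and Hoxd8 from 0.367 to 11.5 TPM. Hoxd9 had 0.444, 0.366 and 0.431 TPM in DMSO and 8.64, 7.87 and 8.10 TPM at 96 h, while Hoxb8 ended at 1.08 TPM. After centring, 10 of the Hox genes were higher.

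Genes of the 2-cell stage embryo, which many perturbations of repressive chromatin switch on in mESCs, were rarely called. Of 24 tested, 3 were higher (12.5%, beside 20.3% of all genes tested) and 0 were lower, with a median of 0.64. The higher members were Tdpoz3 (1.17 to 4.45 TPM), Usp17ld (3.18 to 7.72 TPM) and Gm4340 (3.21 to 7.08 TPM). Duxf3, the gene of the DUX factor that drives this programme, had 2.19 ± 0.252 TPM in DMSO and 2.47 ± 0.0903 TPM at 96 h (limma adjusted p = 0.282). Zscan4c had 47.9 and 71.1 TPM, and none of the Zscan4 genes a to f was called. These genes come in near-identical copies, so their separate values are uncertain. After centring, 1 of the 24 was higher.

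**Figure D4:**
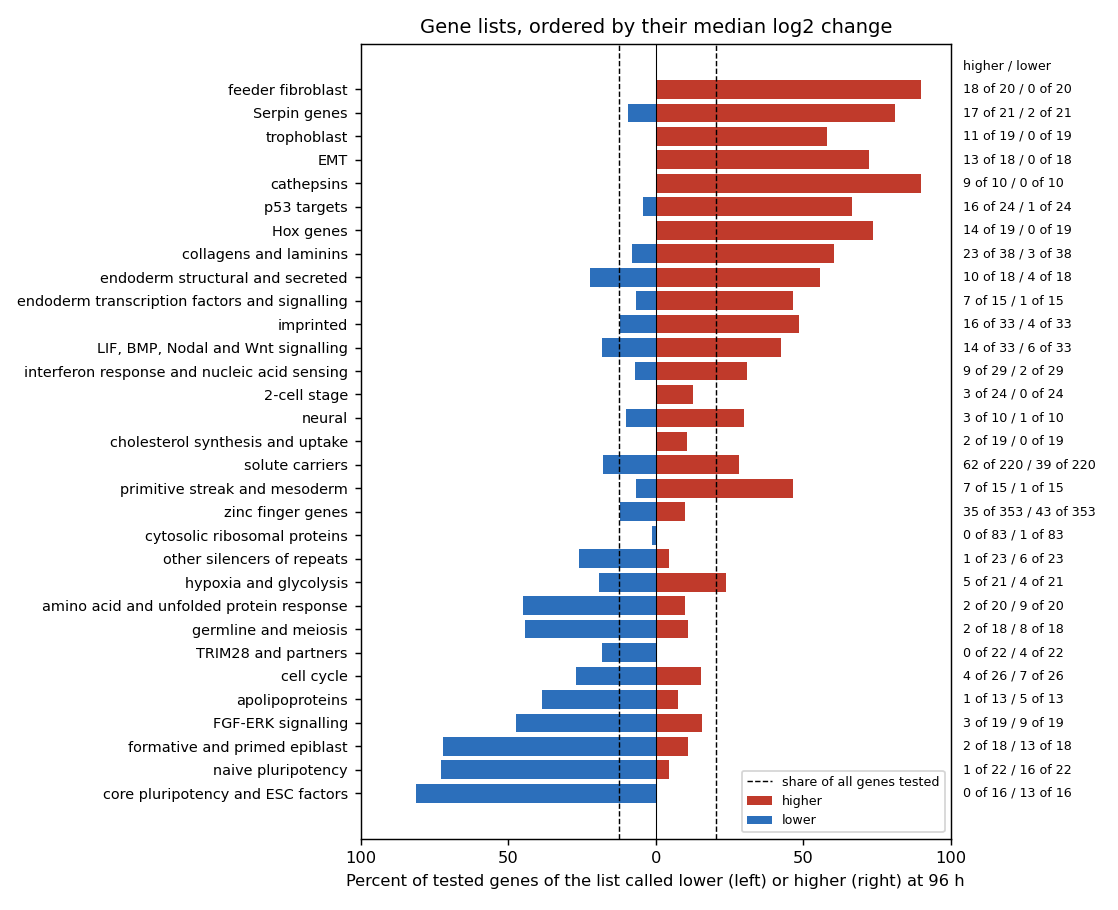
Percent of tested members called lower (left) and higher (right) at 96 h for each gene list, with dashed lines at the shares over all tested genes (12.4% lower and 20.3% higher). Core pluripotency genes have 13 of 16 members lower, and feeder fibroblast genes have 18 of 20 higher.

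Mesenchymal and matrix genes were described by list. Of 18 genes of epithelial-mesenchymal transition, 13 were higher and 0 were lower, with a median of 1.58. The intermediate filament gene Vim had 177, 195 and 193 TPM in DMSO and 1266, 1257 and 1290 TPM at 96 h. The repressor genes of E-cadherin Zeb2 (3.42 to 31.2 TPM), Snai1 (5.85 to 26.7 TPM) and Snai2 (1.11 to 3.63 TPM) rose. No lower call was made among the epithelial genes of the list. E-cadherin itself (Cdh1) had 368 and 636 TPM and was not called, Epcam had 258 ± 6.68 and 254 ± 1.82 TPM, and the claudin gene Cldn4 rose from 141 to 649 TPM. Of 38 collagen and laminin genes, 23 were higher and 3 were lower, with a median of 1.21. Col1a1 (chromosome 11, 94936224 to 94953042) went from 8.16 ± 0.376 TPM to 183 ± 4.55 TPM, Col3a1 from 0.539 to 20.5 TPM, Col5a2 from 2.10 to 42.9 TPM and Col8a1 from 0.685 to 23.4 TPM. The collagen chaperone gene Serpinh1 went from 134 to 1115 TPM.

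Several of these genes also mark fibroblasts, the cells on which the line was expanded. Of 20 feeder fibroblast markers tested, 18 were higher and 0 were lower, with a median of 2.60, and 16 were higher after centring. Members low in DMSO, such as Postn and Prrx1, could hardly be called lower. Their summed level was 439 to 450 TPM in DMSO and 4190 to 4350 TPM at 96 h. Acta2, which encodes smooth muscle actin, had 74.0, 72.3 and 77.4 TPM and then 1198, 1133 and 1181 TPM, a log2 change of 3.96 (SE 0.0655, limma adjusted p = 2.1e-15). Tagln had 293, 309 and 297 TPM and then 2589, 2525 and 2651 TPM, with 67.9% of its exonic bases in an opposite-strand gene. These 2 genes made up most of the sum at 96 h. Postn went from 0.199 to 8.78 TPM, and the mesenchymal homeobox gene Prrx1 from 0.246 to 8.41 TPM. The fibroblast genes Thy1 (7.85 and 12.1 TPM) and Dcn (0.611 and 1.34 TPM) were not called, and Lum and Fap did not reach the level needed for the test. The part of remaining feeder cells in these values, and in those of the mesenchymal and collagen genes, was not tested. Of 14 immune and blood cell markers 5 were tested and all were called, with a median of 1.01. Their summed level was 39.9 to 44.2 TPM in DMSO and 65.0 to 68.0 TPM at 96 h. After centring, or rescaling without mitochondrial transcripts, 1 was higher and 2 were lower, and Cd68 and Cd74 were not called. Cd68 (23.3 to 47.9 TPM), Cd74 (6.75 to 14.1 TPM) and Csf1r (0.173 to 2.85 TPM, 15.1% of its exonic bases in an opposite-strand gene) were higher, and Cd3e (1.83 to 0.0369 TPM) and Coro1a (7.70 to 1.50 TPM) were lower. Ptprc, Lyz2 and the beta-globin genes did not reach the level needed for the test.

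Several contractile genes that rose are known targets of serum response factor (SRF), which binds the CArG box. The stretches below hold a CArG box, in capitals, and are shown for 5 genes chosen after their values were seen. The actin gene Acta1 had 51.1, 50.3 and 51.3 TPM in DMSO and 247, 235 and 255 TPM at 96 h. Myl9, a myosin light chain gene, went from 53.6 to 179 TPM and Cnn2, which encodes a calponin, from 144 to 617 TPM. Vcl, the gene of vinculin, went from 115 to 317 TPM, with 25.5% of its exonic bases in an opposite-strand gene, and Fhl2, a LIM-domain cofactor, from 6.39 to 59.8 TPM. In the order printed, they lie at chr8:123894804-123894883 (minus strand), chr2:156775268-156775347 (plus), chr10:79988509-79988588 (plus), chr14:20929148-20929215 (plus) and chr1:43196813-43196892 (minus) of GRCm38.p6. The box starts 73, 161, 56, 227 and 96 bases before the gene start.
Acta1: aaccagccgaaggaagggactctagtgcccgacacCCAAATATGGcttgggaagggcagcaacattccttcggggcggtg
Myl9: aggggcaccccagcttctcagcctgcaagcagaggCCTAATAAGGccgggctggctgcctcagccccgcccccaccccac
Cnn2: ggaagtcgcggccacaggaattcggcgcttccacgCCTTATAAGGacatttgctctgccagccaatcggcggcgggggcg
Vcl: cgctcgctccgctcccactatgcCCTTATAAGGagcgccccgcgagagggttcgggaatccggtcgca
Fhl2: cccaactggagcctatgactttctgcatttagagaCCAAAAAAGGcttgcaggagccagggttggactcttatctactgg
A CArG box, searched on both strands, was present in 1.60% of the 10669 windows. The share was 2.09% of the windows of higher genes, 1.03% of those of lower genes and 1.53% of those of genes not called.

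Signalling genes moved in both directions. Of 19 genes of FGF and ERK signalling, 9 were lower (47.4%) and 3 were higher (15.8%), with a median of -1.0. Over all genes tested 12.4% were lower and 20.3% higher. Beside the ligand gene Fgf4, the ERK-induced transcription factor genes Etv4 (124 to 7.21 TPM) and Etv5 (122 to 15.7 TPM) fell, and so did the feedback inhibitor genes Spry4 (36.3 to 1.99 TPM) and Dusp6 (72.7 to 32.3 TPM). The receptor gene Fgfr1 rose from 76.0 to 235 TPM and Fos from 5.6 to 39.3 TPM. Of 33 genes of LIF, BMP, Nodal and Wnt signalling, 14 were higher (42.4%) and 6 were lower (18.2%), with a median of 0.71. Ligands of the BMP and Wnt branches were among the largest rises. Wnt6 had 1.90, 2.06 and 2.17 TPM in DMSO and 58.8, 62.9 and 59.6 TPM at 96 h. Bmp2 had 0.598, 0.899 and 0.793 TPM and then 28.9, 27.1 and 26.6 TPM, and Bmp4 went from 6.79 to 33.5 TPM. Of the targets of these branches, Axin2 (Wnt) went from 13.4 to 62.6 TPM and Id3 (BMP) from 64.4 to 264 TPM, while the BMP targets Id1 (114 and 138 TPM) and Id2 (57.9 and 70.3 TPM) were not called. The Wnt receptor gene Fzd5, with 17.8% of its exonic bases in an opposite-strand gene, fell from 24.0 to 6.76 TPM. The secreted Wnt inhibitor gene Dkk1 had 0.195, 0.469 and 0.201 TPM and then 12.4, 14.5 and 14.6 TPM. On the Nodal branch, the ligand genes Nodal (65.0 to 29.5 TPM) and Gdf3 (75.1 to 9.89 TPM) and the inhibitor genes Lefty1 (204 to 38.2 TPM) and Lefty2 (56.9 to 12.4 TPM) were lower.

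Targets of p53, the factor activated by DNA damage and other stress, were mostly higher. Of 24 tested, 16 were higher and 1 was lower, with a median of 1.48, and 13 were higher after centring. Cdkn1a, the gene of the cell cycle inhibitor p21, had 69.8, 68.3 and 67.6 TPM in DMSO and 292, 291 and 291 TPM at 96 h. Mdm2, the ubiquitin ligase that limits p53, went from 124 to 345 TPM, Ccng1 from 160 ± 5.30 TPM to 751 ± 7.42 TPM and Phlda3 from 55.1 to 294 TPM. The death receptor gene Fas had 0.401, 0.852 and 0.475 TPM and then 22.1, 21.2 and 20.2 TPM. Bax, which encodes an effector of apoptosis and has 12.2% of its exonic bases in a same-strand gene, had 286 and 294 TPM, and Gdf15 fell from 2.98 to 0.364 TPM. The cell cycle list had 7 lower (26.9%) and 4 higher (15.4%) members of 26, beside 12.4% and 20.3% of all genes tested. Lower were Ccne1, the gene of cyclin E1 (242 to 91.2 TPM), Pcna and 5 of the MCM helicase genes, Mcm5 among them (273 to 103 TPM). Higher were Ccnd2 (9.92 to 41.1 TPM) and the CDK inhibitor genes Cdkn1c (83.9 to 240 TPM, 30.6% of its exonic bases in an opposite-strand gene), Cdkn2a (30.0 to 249 TPM) and Cdkn2b. The last had 8.05, 8.85 and 9.21 TPM and then 167, 161 and 152 TPM. Myc, which is outside this list, went from 125 to 27.2 TPM.

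Imprinted genes, of which many keep the silence of a single parental allele through ZFP57 and TRIM28, were more often higher than lower. Of 33 tested, 16 were higher (48.5%) and 4 were lower (12.1%), with a median of 0.88. Over all genes tested the shares were 20.3% and 12.4%. Mest, a paternally expressed gene, had 0.307, 0.534 and 0.484 TPM in DMSO and 59.3, 62.5 and 67.0 TPM at 96 h. The log2 change was 6.08 (SE 0.130, limma adjusted p = 1.77e-14). For Mest, 23.1% of its exonic bases lie in an opposite-strand gene. H19, a maternally expressed noncoding RNA (chromosome 7, 142575529 to 142578143), had 6.85, 8.05 and 6.99 TPM and then 105, 108 and 92.4 TPM. Its neighbour Igf2 went from 124 ± 2.19 TPM to 924 ± 60.3 TPM, but shares 62.8% of its exonic bases with Gm49394 on the same strand, so the split between them is uncertain. Of the reciprocally imprinted pair on chromosome 17, Airn rose from 0.813 to 16.7 TPM and Igf2r from 28.5 to 125 TPM. Peg10 (340 to 1469 TPM), Peg3 (41.1 to 191 TPM) and Nnat (1.06 to 19 TPM), all paternally expressed, rose as well. Snrpn, with 27.3% of its exonic bases in a same-strand gene, fell from 210 to 70.3 TPM, and Meg3 had 663 ± 121 and 354 ± 19.4 TPM and was not called. TPM do not separate the parental alleles.

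Of 22 genes of TRIM28 and its partners, 4 were lower (18.2%, beside 12.4% of all genes tested) and 0 were higher, with a median of -0.56. These were Trim28, the HP1 beta gene Cbx1 (311 to 102 TPM), the imprint guardian Zfp57 (444 ± 55.9 to 79.4 ± 4.13 TPM) and Rex2 (61.1 to 12.2 TPM). Setdb1 had 76.4 ± 1.81 and 50.6 ± 1.00 TPM, a log2 change of -0.59. Of 23 other silencers of repeats, 6 were lower (26.1%) and 1 was higher (4.35%). The methylcytosine dioxygenase Tet1 went from 115 to 9.44 TPM, the chromatin remodeller gene Hells from 206 to 43.9 TPM and Uhrf1 from 248 to 122 TPM. The higher member, Trex1, lies wholly within exons of another gene on the same strand. Of 353 Zfp genes, a family that includes many KRAB zinc finger proteins, 35 were higher (9.92%) and 43 were lower (12.2%), with a median of -0.06, beside 20.3% and 12.4% of all genes tested. Zfp980, Zfp981 and Zfp987 had log2 changes between -2.27 and -2.06, and Zfp503 the largest rise, at 3.52.

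Of 29 genes of the interferon response and nucleic acid sensing, 9 were higher (31%) and 2 were lower (6.9%), with a median of 0.65. Over all genes tested the shares were 20.3% and 12.4%. Genes of antigen presentation were among those that rose. B2m, the light chain of MHC class I, had 37.6, 38.6 and 34.1 TPM in DMSO and 339, 344 and 305 TPM at 96 h, and the peptide transporter gene Tap1 went from 8.14 to 58.9 TPM. The sensor adaptor gene Tmem173 (STING) went from 2.03 to 15.2 TPM, Isg15 from 3.71 to 16.1 TPM and Usp18 from 0.131 to 4.19 TPM. Some members were highest at an earlier time. Oasl2 had a mean of 34.2 TPM at 24 h and 11.6 TPM at 96 h, and Stat2 had 48.9 TPM at 24 h and 20.8 TPM at 96 h, against 9.16 and 13 TPM in DMSO. Ifitm1, which mESCs express without interferon, fell from 184 to 59.2 TPM. Mx1 and Ccl5 did not reach the level needed for the test.

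Germline and metabolic genes were mixed. Of 18 germline and meiosis genes tested, 8 were lower (44.4%) and 2 were higher (11.1%), beside 12.4% and 20.3% of all genes tested. Hormad1 went from 18.7 to 0.444 TPM and Stra8 from 7.97 to 0.545 TPM, while Brdt rose from 0.798 to 3.81 TPM. Sycp3 fell from 12.5 to 3.02 TPM, with 52.2% of its exonic bases in an opposite-strand gene. Of 20 genes of the amino acid and unfolded protein response, 9 were lower (45%) and 2 were higher (10%). Psat1, an enzyme of serine synthesis, had 398, 395 and 352 TPM in DMSO and 55.3, 53.7 and 65.2 TPM at 96 h, and Chac1 went from 27.6 to 1.94 TPM. The amino acid transporter genes Slc7a5 (215 to 34.0 TPM), Slc7a3 (156 to 18.2 TPM) and Slc7a7 (147 to 21.9 TPM) fell. Of 220 solute carrier genes in all, 62 were higher (28.2%) and 39 were lower (17.7%), with a median of 0.36. Over all genes tested the shares were 20.3% and 12.4%. The metal transporter genes Slc39a8 (1.52 to 30.4 TPM) and Slc40a1 (9.69 to 79.4 TPM) rose. Among 21 glycolysis and hypoxia entries, 5 were higher (23.8%) and 4 were lower (19%). Hexokinase 2 (Hk2) went from 130 to 32.6 TPM and the glucose transporter gene Slc2a3 from 468 to 1360 TPM. Cholesterol genes had a median of 0.37, and 2 of 19 were called, both higher, the lipid exporter gene Abca1 by most (1.32 to 12.8 TPM). Of 83 cytosolic ribosomal protein genes, 1 was called, Rpl10l, which fell from 31.4 to 5.81 TPM.

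Protease and inhibitor families had more higher than lower members. Of 21 Serpin genes tested, 17 were higher and 2 were lower, with a median of 1.87. Serpine2, which encodes an inhibitor of serine proteases, had 14.4, 13.7 and 12.3 TPM in DMSO and 91.1, 88.2 and 85.2 TPM at 96 h. The Serpinb9 genes, which come in near-identical copies, account for 7 of the 17. Of 10 cathepsin genes, 9 were higher and 0 were lower. Ctsd, a lysosomal aspartic protease gene with 34.4% of its exonic bases in a same-strand gene, went from 118 to 691 TPM, and Ctsb, with 12.8% in an opposite-strand gene, from 27.3 to 157 TPM. The membrane and lamina genes Anxa2 (115 to 936 TPM) and Lmna (58.0 to 278 TPM) and the calcium-binding protein gene S100a6 (70.8 to 667 TPM), chosen after their values were seen, rose too.

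The course in time differed from list to list. Since all time points share the DMSO libraries, their values are given side by side only. After 2 h, 45 genes were higher (0.251%) and 22 lower (0.123%). After 6 h the numbers were 139 (0.776%) and 34 (0.19%), and after 24 h they were 1819 (10.1%) and 360 (2.01%). The median of the core pluripotency list went through -0.07, -0.24 and -0.77 to -3.15 over the 4 time points, in order. That of the p53 targets was 0.31, 0.06, 0.34 and 1.48. The trophoblast list stood at -0.60 at 24 h and at 1.84 at 96 h, and the feeder fibroblast list at 0.41 and 2.60. The amino acid response list had -0.29, -0.74, -0.90 and -0.52, and the cholesterol list had 0.80 at 24 h and 0.37 at 96 h.

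**Figure D5:**
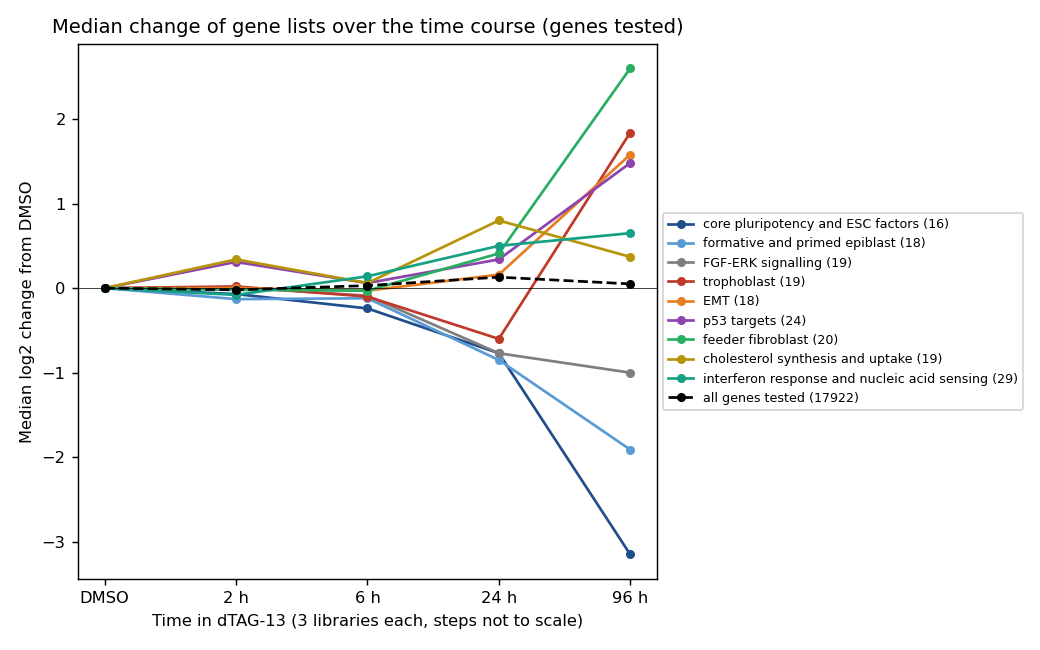
Median log2 change from DMSO (vertical axis) of 9 gene lists and of all tested genes for DMSO and the 4 treatment times, of which 96 h is the last. Core pluripotency genes reach -0.77 at 24 h and -3.15 at 96 h, and trophoblast genes go from -0.60 to 1.84.

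The genes were also described by their place relative to MMERVK and MMETn elements, families among the ERVs that TRIM28 silences. Intracisternal A-type particles, another such family in the study, were not covered. Of 199 genes that start within 20 kb of a full-length MMERVK element on the study's list, 24.6% were higher and 14.6% were lower. From 20 to 100 kb the shares were 22.3% and 12.3% of 730 genes, and beyond 100 kb they were 20.1% and 12.4% of 16993. For MMETn elements the shares were 18.2% and 14.3% of 77 genes, 21.3% and 10.6% of 395, and 20.3% and 12.5% of 17450. Shares near MMERVK and MMETn elements thus lay within a few percentage points of the background. Single genes close to an element, or at an H3K9me3 peak that was strong in DMSO and not at 24 h, are given for both directions. They were chosen after their values were seen. Cthrc1, a secreted glycoprotein gene, had 16.6, 18.3 and 14.5 TPM in DMSO and 80.8, 80.3 and 96.4 TPM at 96 h, after a mean of 241 TPM at 24 h. Cd59a went from 6.99 to 38.5 TPM, Cyp21a1 from 0.615 to 15.5 TPM and 2010005H15Rik from 0.213 to 6.28 TPM. Lower were Pla2g10 (10.4 to 0.634 TPM) and 1700029P11Rik (29.0 to 2.61 TPM), which start within 20 kb of an MMERVK element. Epp13 (12.2 to 0.868 TPM), at a peak strong in DMSO and not at 24 h, was lower too. Of 85 genes whose start lay in a strong H3K9me3 peak in DMSO, 25.9% were higher and 22.4% were lower. Of the 78 of these whose start lay in no such peak at 24 h, 18 were higher (23.1%) and 18 were lower (23.1%). Among genes whose start lay in no such peak in DMSO, 20.3% were higher and 12.4% were lower. Such a peak was among the 10000 of highest enrichment in at least 2 libraries. A peak below that rank at 24 h can still be present, and H3K9me3 at 96 h is not known from these libraries.

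Genes beside SEs are set beside other active genes here as a description, with no test. Each SE of the study's list was assigned to the nearest active gene, one above 1 TPM in DMSO, which gave 217 genes. Of these, 83 were lower (38.2%) and 28 were higher (12.9%), with a median of -0.50. Among the 15468 other active genes 13.3% were lower and 17.6% were higher, with a median of -0.02. SEs were defined by activity in mESCs, so the list is not independent of the genes that are high there. The lower ones included Fgf4, Tdh, Dppa5a, Esrrb, Tet1, Pou5f1, Sox2, Mycn and the alkaline phosphatase gene Alpl (83.3 to 12.3 TPM). The higher ones included Cldn4, Cdkn1a, Igfbp2 and Slc2a3. Hspb8, a small heat shock protein gene, had 31.4, 30.7 and 31.1 TPM in DMSO and 361, 364 and 333 TPM at 96 h, and the sialomucin gene Podxl had 42.5, 43.7 and 40.5 TPM and then 234, 238 and 226 TPM. Neither is in a list above, and both were chosen after their values were seen.

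A pair of other experiments shares no library with this comparison and gives values for the same genes at 24 h of dTAG-13. In nascent RNA (TT-SLAM-seq), the genes higher at 96 h had a median log2 change of 0.46 (1486 genes with a value), the genes lower at 96 h of -0.07 (1208 genes) and the others of 0.20 (7270 genes). In RNA-seq of the shREPEATS line, whose labels mention doxycycline before treatment in both groups, the medians were 0.44, -0.29 and 0.11. In the core pluripotency list, nascent RNA ran from -2.14 (Mycn) to 0.51 (Nanog), with Pou5f1 at -0.12 and Sox2 at -0.96. The shREPEATS line had values from -1.53 (Mycn) to 0.09 (Lin28a) for these genes, with Pou5f1 at -0.84 and Sox2 at -1.41. In the time course itself, Pou5f1, Krt18 and Acta2 had means of 537, 370 and 54.9 TPM at 24 h.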

How the data were processed

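RNA-seq of the TRIM28-FKBP mESC line was compared between 3 DMSO and 3 dTAG-13 96 h samples. PolyA-selected RNA was sequenced with a stranded kit. The submitters' processing notes name cutadapt 2.4, STAR 2.7.5a, StringTie 2.0.6 and mm10. As deposited, each library has a table of genes from StringTie whose TPM and FPKM the authors scaled to length and depth. The deposited coverage signal, not scaled by depth, served only for relative depth (library against the median library). For the other readouts, the deposited nascent RNA values are FPKM, and of the H3K9me3 peaks the deposited fold enrichment (a ratio to the caller's background) ranked them. The authors' -log10 p and q were not used. Read counts, and so counting errors, are not known from TPM.

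Genes reaching 1 TPM in 3 or more of the 15 time-course libraries entered a joint limma fit (version 3.58.1, R 4.3.3, linear models moderated by eBayes with trend) on log2(TPM + 0.5), for the contrast 96 h minus DMSO, with Benjamini-Hochberg adjustment over 17922 genes. This scale understates changes of low genes. Calls needed an adjusted p below 0.05 and more than 2-fold on this scale. Overlap of exons was taken from GENCODE vM21 on GRCm38. Tables and figures were made in Python 3.11.15 (pandas 2.3.3, numpy 2.4.6, matplotlib 3.10.9).

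Gene lists and members were chosen with earlier results of these data known, and lists are described by counts and medians without a set test. Named are Trim28, the 15 largest rises and falls by log2 among called genes of at least 10 TPM whose libraries do not overlap, the 10 largest gains and losses in TPM, called and defining members of lists, and genes nearest to SEs. Other named genes are marked in the text. Alternatives covered the pseudocount, filter, scaling, unit, libraries, replicate block and fold limit. ERV transcripts were not analysed here. Some named genes are not reported here.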

Additional observations from a re-analysis of the deposited data

How the results depend on the processing

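Of the 3634 higher and 2228 lower genes, requiring a mean of at least 5 TPM left 2241 and 1311. Centring raised the lower genes to 3364. Without a fold limit 7681 were higher and 6704 were lower. Restricting the fit to protein-coding genes that share at most 10% of their exonic bases, a choice made after seeing the data, left 1325 lower genes. Apart from centring, these are fits of fewer genes or looser calls by construction. Centring moved every log2 change down by 0.277, which by itself gives more lower and fewer higher calls. Why the library medians differ was not tested. Counts under the other settings stayed within 1.5 times. They ran from 2690 (FPKM) to 4000 (no filter) for higher and from 1779 (pseudocount of 1) to 2617 (pseudocount of 0.1) for lower genes. Leaving out 1 DMSO or 96 h library gave 3164 to 3671 higher and 2149 to 2273 lower genes. Rescaling without mitochondrial transcripts, also chosen after seeing the data, gave 3504 and 2410. With the replicate number as a block the counts were 3638 and 2228. Numbers do not pair the samples by label, and deviations of same-numbered samples correlated by 0.064, 0.031 and 0.065. The check by gene covered 384 named or listed genes, all of them called in the main fit, and 0 changed direction. Genes already beyond 2-fold could hardly do so, and genes not called were outside the check. Calls were lost for 33 of the 384 with centring, among them Actg1, Bbc3, Pmaip1, Fn1, Lamc1 and Fgf8, for 30 with a pseudocount of 1 and for 54 with FPKM. Depth limits what can be said of genes under 1 TPM, and no read counts stand behind these values.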
